A study of Trametes coccinea with 18 samples.

Results

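The transcriptome of Pycnoporus coccineus CIRM-BRFM 310 (Pycco 310) on a mixture of xylans and galactomannans was compared with that on ground aspen wood. The first medium supplied hemicelluloses freed from the plant cell wall and the second supplied a whole hardwood. The 6 libraries of these 2 media, 3 from each, were chosen by their sample titles out of the 18 libraries of the series. All were made from mycelium of this single strain in liquid culture on day 3. According to the labels, both media held 15 g/l of the named substrate together with 2.5 g/l of maltose, so the maltose was common to the 2 groups. The cultures on maltose alone (20 g/l), Avicel, pine and wheat straw, 3 libraries each, served as points of reference. The study's methods describe its cultures as independent triplicates with a sole carbon source, but they do not discuss the xylan-galactomannan medium, and the plants from which its polymers came are not given in the sources used here.

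One label stood against the others. Replicate 3 of xylan-galactomannan was titled and tagged as such, but its medium text named wheat straw. Its log2 normalized counts correlated with those of the 3 wheat straw libraries with r between 0.9467 and 0.9487 across genes, which are not independent replicates, against 0.878 to 0.9098 for replicates 1 and 2. With replicates 1 and 2 of its own group the coefficients were 0.9777 and 0.9571. Replicate 3 also correlated more closely than replicates 1 and 2 with aspen (0.9247 to 0.9408), pine (0.9009 to 0.9262), Avicel (0.8845 to 0.8944) and maltose (0.8515 to 0.8588). Its closer match was thus not confined to wheat straw. In 671 genes whose mean over replicates 1 and 2 differed from wheat straw by over 2 log2, replicate 3 lay at a median of 40.6% of the way towards wheat straw. The same measure was -8.38% for replicate 1 (371 genes) and -6.99% for replicate 2 (324 genes), each set against the other members of the group. For these the other members included replicate 3, so the values are not a like control. In 650 genes chosen likewise against aspen, replicate 3 lay 32.7% of the way towards aspen, beside -2.55% and -4.09% for replicates 1 and 2. What replicate 3 was grown on cannot be told from these values, so results are given with all 3 libraries and, where a call changed, with replicates 1 and 2 alone.

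White-rot fungi such as Pycnoporus live on wood by secreting enzymes against each polymer of the plant cell wall. Cellulose is opened by lytic polysaccharide monooxygenases (LPMOs, CAZy family AA9) and cut by cellobiohydrolases and endoglucanases, many of which carry a cellulose-binding module (CBM1), and the released cellobiose is taken by β-glucosidases and cellobiose dehydrogenase. Hemicelluloses need backbone enzymes such as xylanases and mannanases together with esterases and side-chain hydrolases, and lignin is attacked by class II peroxidases of family AA2 supplied with hydrogen peroxide by oxidases.

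The 6 libraries held between 26370228 and 34293148 counts each, of which the 10 leading genes of a library took 8.651 to 10.454%. Of 12690 gene models, 11168 passed the filter on low counts and were tested. A gene was called when its adjusted p lay under 0.05 and its log2 fold change over 1 in either direction, in edgeR's quasi-likelihood test with Benjamini-Hochberg adjustment. On xylan-galactomannan 1245 genes were higher (11.1% of those tested) and 1484 were lower (13.3%), and the median log2 fold change over all tested genes was 0.03. The extremes were not symmetric, with 9 genes higher by over 4 log2 and 40 lower by as much. Without replicate 3 the counts were 1486 and 1861. Of the 1245 higher genes 1188 were called again, as were 1397 of the 1484 lower genes, and none of the lost genes changed sign (0 of those called).

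Gene functions were taken from lists of 330 gene models that the study had selected on aspen, pine or wheat straw or had placed among its frequently secreted proteins. From them 94 genes were sorted into 13 lists by CAZy family, KOG group or enzyme name. Because the study selected them on the transcription of these same cultures, 37 of the 94 for high transcription on aspen, their direction is not independent evidence. The study's selection did not use xylan-galactomannan, so each list can lack members of its families, among them genes raised only on that medium. Of the 94 genes 8 were higher on xylan-galactomannan and 44 lower, with a median log2 fold change of -0.90. In 73 of them the 3 libraries of one medium lay wholly above or below the 3 of the other, which was so for 52.3% of all tested genes.

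**Figure D1:**
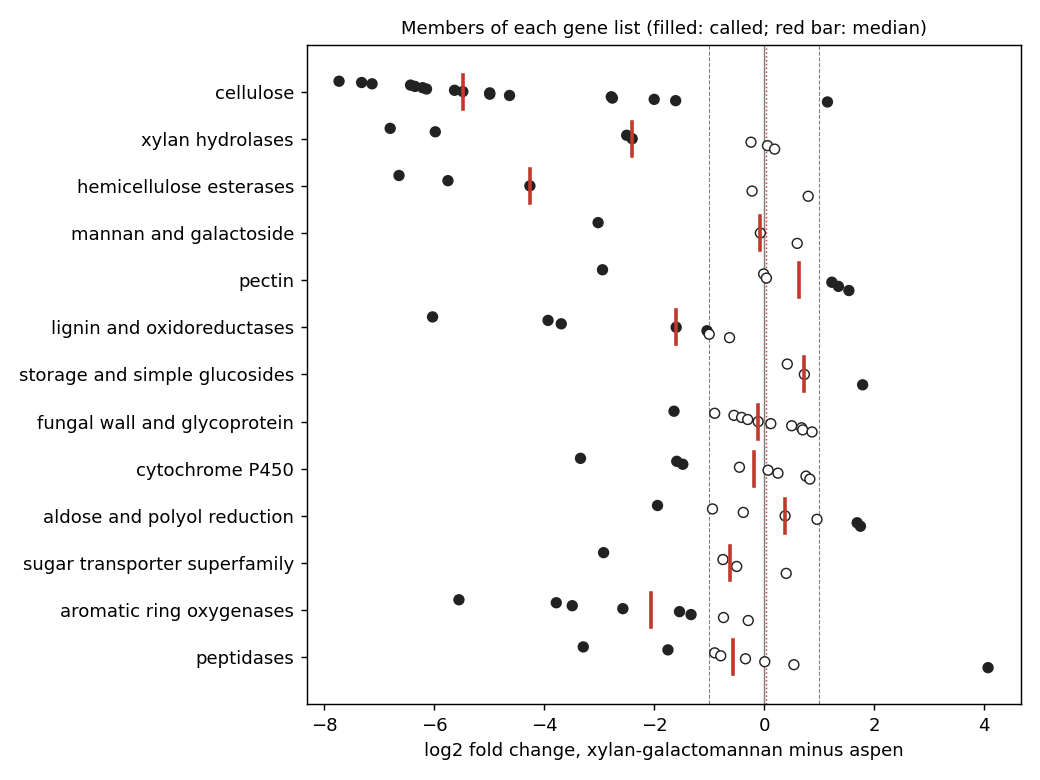
The log2 fold change (xylan-galactomannan minus aspen) of each member of the 13 gene lists, with called genes filled, the median of each list as a red bar, dashed lines at the fold limits and a dotted line at the median of all genes (0.03). Members of the cellulose list reach -7.73 and lie below zero with 1 exception, whereas the pectin list holds 3 called genes to the right.

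Genes for cellulose breakdown formed the clearest difference. Of the 17 members of the cellulose list 16 were lower on xylan-galactomannan than on aspen and 1 was higher, in a background of 13.3% lower and 11.1% higher, and the median of the list was -5.48. All 17 calls held with replicates 1 and 2 alone, with a median of -5.63. Of these genes, 14 came from the study's clusters rich in secreted proteins, which grouped genes of like transcription over these same cultures, so their common direction is not independent evidence either.

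The gene with the greatest fall among those named by the rule coded for an LPMO with a cellulose-binding module (AA9-CBM1, protein ID 1428145). Its normalized counts were 63, 94 and 136 on xylan-galactomannan and 19617, 15108 and 28781 on aspen. The groups lay far apart, and the log2 fold change was -7.73 ± 0.64 (SE, n = 3 per group, adjusted p = 2.99e-07). On maltose the mean was 477, so the gene stood lower on the free hemicelluloses than on maltose (log2 fold change -2.24 ± 0.51, adjusted p = 0.00119). The other listed LPMO with this module (1382161) had 107, 161 and 220 normalized counts against 15757, 9375 and 15559 on aspen, a change of -6.35 ± 0.61. The third of the list, a single-domain AA9 (1466495), was almost silent on xylan-galactomannan, with 4, 7 and 8 normalized counts against 467, 318 and 656. It was far more abundant on pine (mean 3218) and wheat straw (7654) than on aspen.

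The listed genes of GH7 and GH6, families of cellobiohydrolases that cut cellobiose units from the chain ends, behaved alike. They are annotated by family only. One GH7 gene (1366028) had 29, 49 and 52 normalized counts on xylan-galactomannan and 8974, 3083 and 9177 on aspen, a log2 fold change of -7.32 ± 0.72. The other GH7 gene (1389216) had 41, 68 and 104 against 6572, 6187 and 17881, a change of -7.13 ± 0.92. On maltose the means were 111 and 252, and the log2 fold changes of xylan-galactomannan against maltose were -1.32 ± 0.60 and -1.79 ± 0.75, which were not called (adjusted p = 0.0743 and 0.0538). The GH6 gene (CBM1-GH6, 1357326), the most abundant of the list per length on aspen with a mean of 851 RPKM, had 796, 749 and 879 normalized counts on xylan-galactomannan and 39074, 29684 and 53463 on aspen. Its change was -5.63 ± 0.77, and it was called above maltose on xylan-galactomannan (mean 219, adjusted p = 0.0217).

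Cellobiose dehydrogenase (AA8-AA3_1, 1401955), which oxidizes cellobiose and can pass electrons to LPMOs, fell in step with them. It had 147, 141 and 258 normalized counts on xylan-galactomannan and 13599, 11470 and 23258 on aspen (log2 fold change -6.43 ± 0.72, adjusted p = 5.24e-06). Genes of endoglucanase families, whose enzymes cut within the chain, spread more widely. The GH12 gene 1375723 changed by -6.14 ± 0.93 and the GH5_5 gene 1434718 by -5.48 ± 0.59, while the GH45 gene 1433077 changed by -2.78 ± 0.39 and the second GH12 gene 1358049 by -2.00 ± 0.50. The study names 1358049 as potentially active on hemicellulose, whereas the list used here counts its family under cellulose. A gene of family GH131 with a CBM1 (1467772) changed by -4.63 ± 0.74, a protein known only for its CBM1 (1472584) by -4.99 ± 0.54 and the GH5_22 gene (1460251) by -2.76 ± 0.27.

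The listed genes of the β-glucosidase family GH3 were divided. The gene with a cellulose-binding module (CBM1-GH3, 1404940) had 78, 73 and 85 normalized counts against 2769, 1379 and 3464 on aspen, a change of -4.99 ± 0.66, and the gene 1411666 changed by -1.61 ± 0.31. The third (1434274) was the exception of the list, with 3163, 4128 and 2931 normalized counts on xylan-galactomannan and 871, 1818 and 1988 on aspen. It was higher by 1.15 ± 0.40 log2 (adjusted p = 0.0275). That call was lost without xylan-galactomannan replicate 2 (0.98) or without aspen replicate 1 (0.86).

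Set against maltose, 16 of the 17 cellulose genes were higher on aspen (19.7% of all genes were), whereas 5 were higher and 2 lower on xylan-galactomannan (19.4% and 14.5% of all genes). The median log2 fold changes against maltose were 5.60 on aspen and -0.37 on xylan-galactomannan. These comparisons share the maltose libraries and are given side by side only. Avicel, a crystalline cellulose, gave the AA9-CBM1 gene 1428145 a mean of 55405 and the GH7 gene 1389216 a mean of 61656, both above aspen. Replicate 3, whose medium text named wheat straw, lay below all 3 wheat straw libraries in 16 of the 17 genes.

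**Figure D2:**
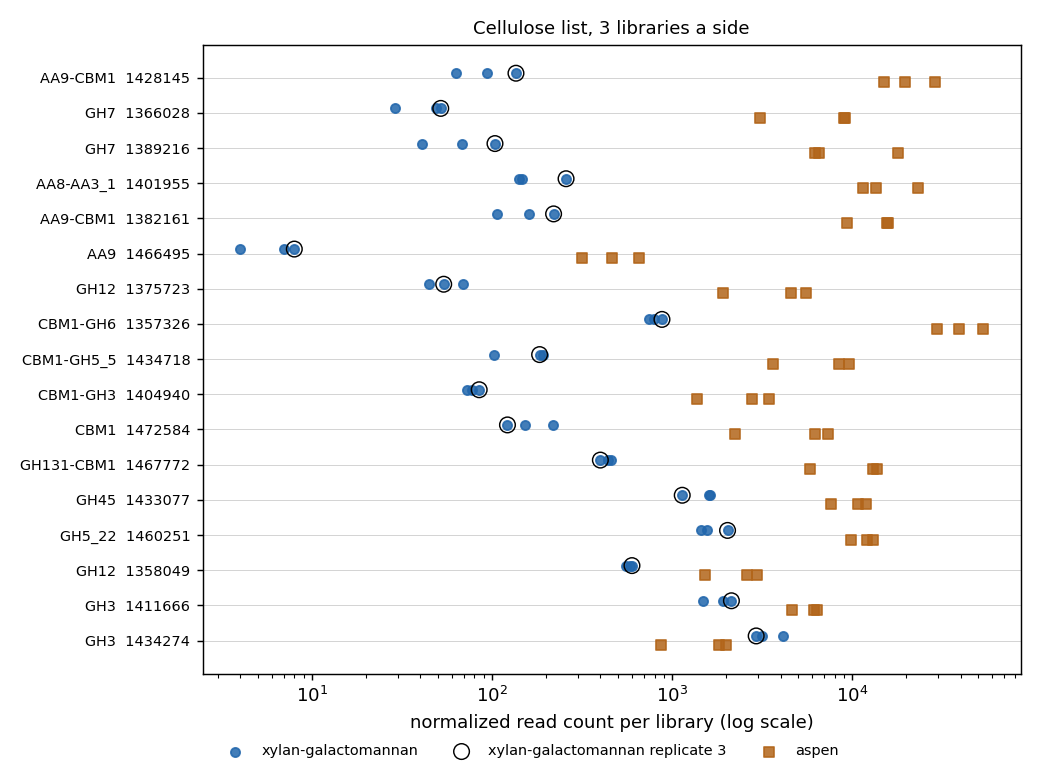
Normalized read counts (log scale) of the 17 cellulose genes in each library, ordered by log2 fold change, with xylan-galactomannan as circles (replicate 3 ringed) and aspen as squares. The groups do not overlap in any row, and the only gene with xylan-galactomannan on the right is GH3 1434274.

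The listed enzymes for the supplied polymers did not move as a group. Of the 7 genes for xylan hydrolases 4 were lower on xylan-galactomannan than on aspen, 0 were higher and 3 were not called. Of all tested genes 13.3% were lower and 11.1% higher. The list median was -2.40, and the list counts were the same without replicate 3. The study's aspen selection supplied 5 of the 7 genes. Both listed genes of family GH10, endoxylanases that cut the xylan backbone, were among the lower genes. Xylanase genes outside the list were not examined as a family. The first (1395316) had 118, 88 and 120 normalized counts on xylan-galactomannan and 13389, 12953 and 10711 on aspen, a log2 fold change of -6.80 ± 0.37 (adjusted p = 2.5e-09). Means on maltose, Avicel, pine and wheat straw were 37.9, 48.7, 127 and 95.4, and the aspen level was called above each of them. The study had selected both GH10 genes on aspen and not on pine or wheat straw, so a high aspen level was part of that selection. The second (1435885) had 154, 136 and 116 against 9128, 5288 and 11476, a change of -5.98 ± 0.83, and on xylan-galactomannan it did not differ detectably from maltose (0.39 ± 0.71, adjusted p = 0.665).

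Debranching and side-chain enzymes of xylan were split. The α-glucuronidase of family GH115 (1426831), which removes glucuronic acid, had 2200, 1430 and 3004 normalized counts against 9916, 12125 and 16199 on aspen (-2.50 ± 0.47), and it was above maltose on both media. One GH43 gene (408613) changed by -2.40 ± 0.46. The other GH43 gene (1435501), the GH51 arabinofuranosidase-family gene (1357629) and the GH30 gene (1357645) had changes of -0.24 ± 0.78, 0.06 ± 0.49 and 0.19 ± 0.50 and were not called. All 3 were well above maltose on both media. The study's aspen selection, which asked for a rise over maltose, held all 3, so their rise on aspen was part of that selection. The GH43 gene 1435501 had 6192, 7110 and 3111 normalized counts on xylan-galactomannan and 7014, 6098 and 6420 on aspen, and it varied more within wheat straw (815 to 11345) and pine (4258 to 25730), libraries of the same fit.

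Esterases that strip side groups or cross-links from hemicelluloses fell into 2 kinds. Of the 5 genes 3 were lower on xylan-galactomannan, beside 13.3% of all tested genes, and 2 were not called. The CE1 gene with a cellulose-binding module (CBM1-CE1, 1392142) had 58, 64 and 59 normalized counts against 6542, 3488 and 8373 on aspen, a change of -6.64 ± 0.48. The single-domain CE1 gene (1377160) had 233, 147 and 314 against 11549, 15901 and 10910 (-5.75 ± 0.42), with means between 49.8 and 297 on the other 4 carbon sources. The study had selected this gene on aspen alone, so its high aspen level was part of that selection. The CE15 gene (CBM1-CE15, 1470260), of the family of glucuronoyl esterases that act between lignin and glucuronoxylan, changed by -4.26 ± 0.64. The 2 listed acetylesterases of family CE16 differed from these. CBM1-CE16 (1439328) had a change of -0.22 ± 0.57, and CE16 (1373375) had 6863, 8203 and 3981 normalized counts against 3923, 3222 and 3843, a change of 0.80 ± 0.37 (adjusted p = 0.0937). With replicates 1 and 2 alone the latter was called higher at 1.03.

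For mannan, the listed β-mannanase CBM1-GH5_7 (1359888), which cuts the mannan backbone, was lower on the medium that contained galactomannan. Its normalized counts were 1504, 1375 and 2224 on xylan-galactomannan and 15260, 9477 and 17563 on aspen, a log2 fold change of -3.02 ± 0.61 (adjusted p = 0.000782). It nevertheless exceeded maltose on xylan-galactomannan (2.59 ± 0.61, adjusted p = 0.00156), so the order was aspen, xylan-galactomannan, maltose, with Avicel highest at a mean of 27880. The GH27 gene (1431843), of the α-galactosidase family, had 17107, 16843 and 13310 against 10943, 9481 and 11139. Its libraries did not overlap, but the change of 0.60 ± 0.25 missed the limits (adjusted p = 0.0613). Galactokinase (1112144), the first enzyme of galactose use, overlapped between the media and had a change of -0.07 ± 0.23.

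Pectin genes made up 3 of the 5 CAZyme genes of the lists that were higher on the free hemicelluloses. Of 6 genes 3 were higher (11.1% of all tested genes were), 1 was lower (13.3% of all) and 2 were not called, with the same calls when replicate 3 was left out. The pectin methylesterase CE8 (1438246) had 8658, 9040 and 7806 normalized counts against 3437, 3512 and 4051 on aspen, a change of 1.23 ± 0.31. The polygalacturonase-family gene GH28 (1377553) had 10135, 8843 and 8026 against 3735, 2878 and 4076 (1.35 ± 0.40), a call that was lost without aspen replicate 2 (1.22). The rhamnosidase-family gene GH78 (1434191) had 5627, 6052 and 4585 against 1871, 1605 and 2161 (1.54 ± 0.41). In each of these 3 genes every xylan-galactomannan library lay above every aspen library. A further GH28 gene (1370654) went the other way, by -2.94 ± 0.62, and the remaining GH28 genes 688728 and 1446047 had changes of -0.01 ± 0.48 and 0.04 ± 0.25. All 6 pectin genes were above maltose on both media, as were 19.4% of all tested genes on xylan-galactomannan and 19.7% on aspen. The study's aspen selection, which asked for a rise over maltose, supplied 4 of the 6. Their calls on aspen were thus part of that selection, and the count on xylan-galactomannan shares its maltose libraries and is a description only.

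**Figure D3:**
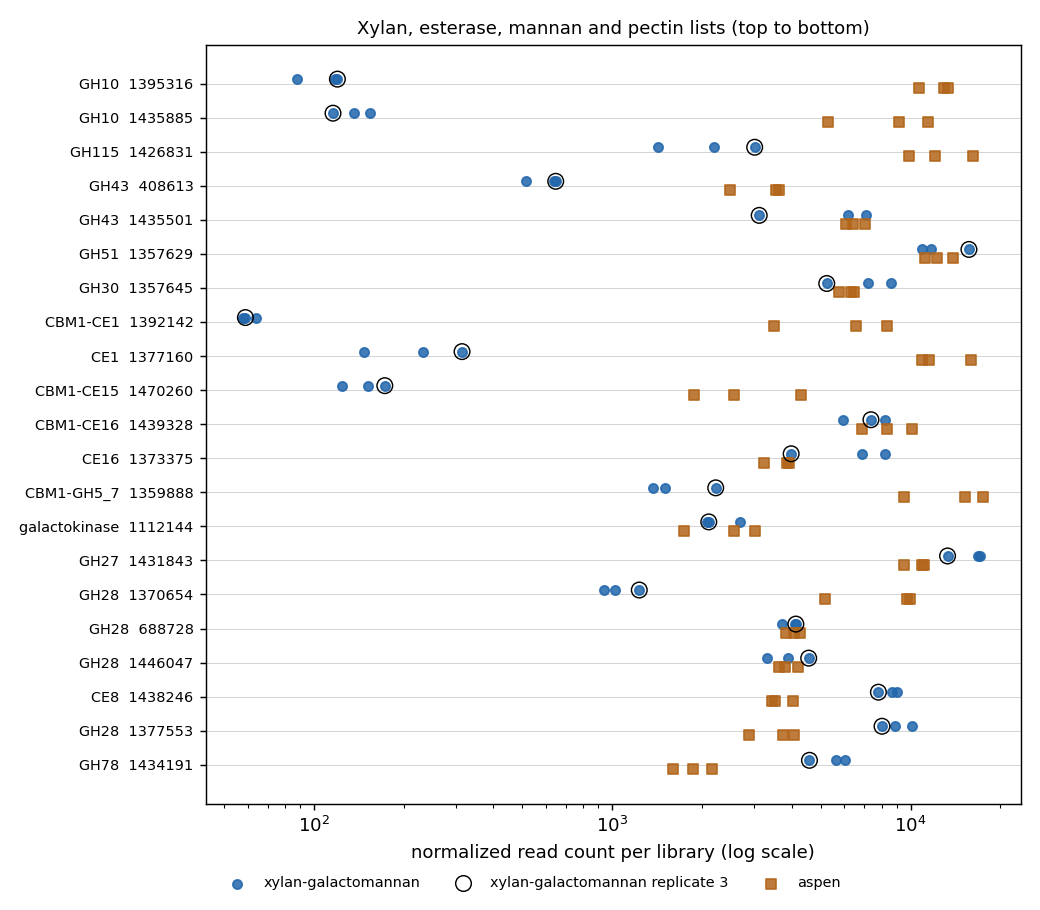
Normalized read counts (log scale) of the genes of the xylan, esterase, mannan and pectin lists in each library, from top to bottom and by log2 fold change within a list; circles are xylan-galactomannan (replicate 3 ringed) and squares are aspen. The GH10 and CE1 genes lie between 58 and 314 counts on xylan-galactomannan and between 3488 and 15901 on aspen, whereas GH51, GH30 and CBM1-CE16 overlap.

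Genes for lignin attack were mostly lower on xylan-galactomannan, though some remained abundant there. Of 7 genes 5 were lower and 0 higher, beside 13.3% and 11.1% of all tested genes, with a list median of -1.60. The study's aspen selection supplied 6 of the 7. The class II peroxidase gene 1431101 (AA2) had 821, 1040 and 1281 normalized counts on xylan-galactomannan and 64254, 97521 and 48061 on aspen (-6.03 ± 0.45, adjusted p = 7.65e-08). It lies next to another AA2 gene (1464049) in the Pycco1 annotation, 1501 bases apart, and that gene had 661, 2045 and 733 against 14264, 13654 and 16764 (-3.69 ± 0.41). The study had selected both genes on aspen and not on pine or wheat straw, so their high aspen levels were part of that selection. The AA2 gene 1468611 fell less, from 53827, 87847 and 47547 on aspen to 18359, 23245 and 19831 (-1.60 ± 0.43), and the AA2 gene 1436321 had a change of -1.0 ± 0.51 that was not called (adjusted p = 0.125). Per length, the mean levels of 1431101 and 1468611 on aspen were close, at 1492 and 1594 RPKM, but on xylan-galactomannan they were 27.2 and 624 RPKM.

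Oxidases that make hydrogen peroxide followed in part. The AA5_1 gene (1480943), of the glyoxal oxidase family, had 919, 1658 and 1423 normalized counts against 26571, 23288 and 11971 (-3.93 ± 0.59). The AA3_2 gene (1429888) changed by -1.04 ± 0.30, a value at the fold limit whose call was lost with replicates 1 and 2 alone (-0.97) and without aspen replicate 1 (-0.88). The AA3_3 gene (1368318), of the alcohol oxidase family, overlapped between the media, with 50246, 38791 and 58824 against 41510, 95690 and 95590, and was not called (-0.63 ± 0.47). All 7 genes of this list were above maltose on both media, with medians of 5.85 log2 on xylan-galactomannan and 7.20 log2 on aspen. Of all tested genes 19.4% and 19.7% were above maltose on these media. The study's aspen selection, which supplied 6 of the 7, asked for a rise over maltose. Their calls on aspen were thus part of that selection, and the count on xylan-galactomannan shares its maltose libraries and is a description only.

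The list of ring oxygenases, most of them annotated for enzymes that open or hydroxylate aromatic rings, had 6 of 8 genes lower and 0 higher. Of all tested genes 13.3% were lower and 11.1% higher. The list median was -2.05, and the 6 calls held without replicate 3. Homogentisate dioxygenase (1442642), a ring-opening enzyme of tyrosine and phenylalanine breakdown, had 281, 469 and 236 normalized counts on xylan-galactomannan and 12842, 18619 and 14963 on aspen. The groups were wholly separate and the change was -5.55 ± 0.70 (adjusted p = 1.42e-05). A phenol-monooxygenase-type gene (1433039) had 276, 294 and 511 against 4820, 6450 and 3924 (-3.78 ± 0.36), and a salicylate-monooxygenase-type gene (1411633) had 204, 300 and 184 against 2478, 2965 and 2380 (-3.49 ± 0.36). The study had selected 1442642 and 1433039 on aspen and not on pine or wheat straw, so their high aspen levels were part of that selection. It had also selected 1387624 on aspen and wheat straw. Another phenol-monooxygenase-type gene (1463192), hydroxyquinol dioxygenase (1387624) and a kynurenine-monooxygenase-type gene (1439160) changed by -2.57 ± 0.43, -1.54 ± 0.26 and -1.33 ± 0.25. The members not called were the phenol-monooxygenase-type gene 1433057 (-0.74 ± 0.33) and a flavin-containing monooxygenase (1434060, -0.29 ± 0.32), which is annotated for cyclohexanone, a ring that is not aromatic.

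**Figure D4:**
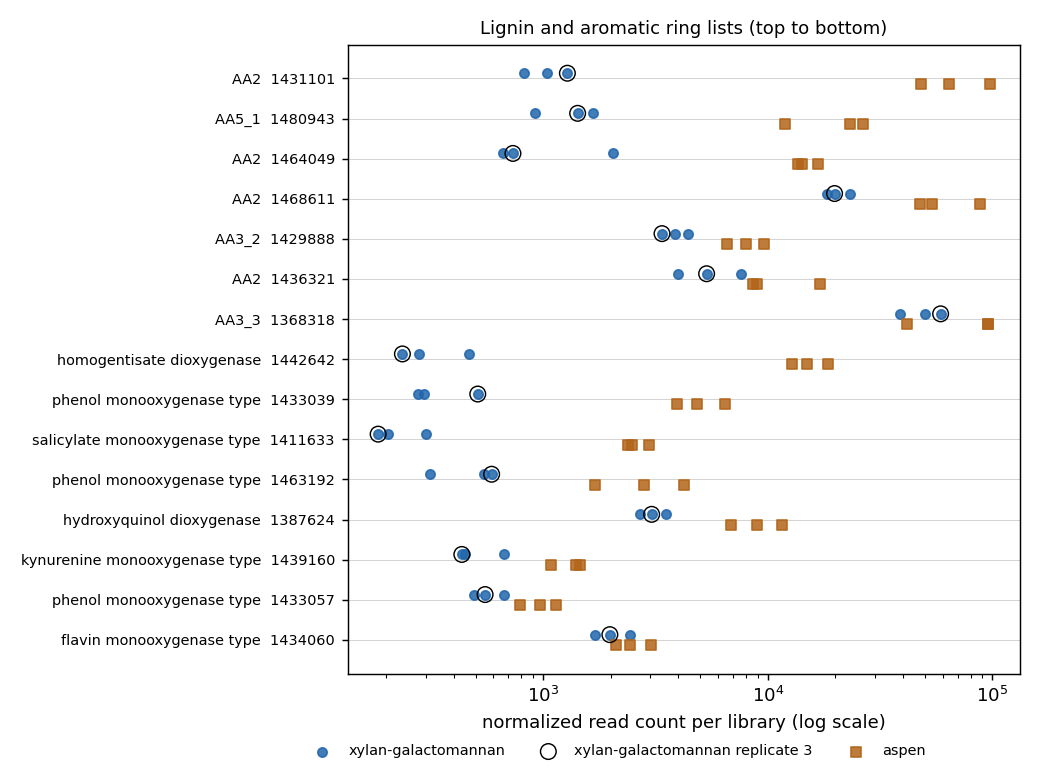
Normalized read counts (log scale) per library of the 7 genes of the lignin list and, below them, the 8 genes of the ring oxygenase list; circles are xylan-galactomannan (replicate 3 ringed) and squares are aspen. The groups overlap in AA3_3 1368318 and flavin monooxygenase 1434060 and are separate in the other rows.

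Cytochromes P450, monooxygenases of small and often foreign molecules, were lower in 3 of 8 cases, beside 13.3% of all tested genes. The gene 1362757 fell most (778, 756 and 463 against 10418, 4884 and 5126, -3.34 ± 0.48). The study had selected this gene on aspen alone, so its high aspen level was part of that selection. The others lower were 1469032 (-1.59 ± 0.30) and 1435960 (-1.48 ± 0.26), and the remaining 5 had changes from -0.45 to 0.83.

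Aldo/keto reductases and polyol dehydrogenases, a set that includes enzymes reducing pentoses to polyols, held 2 genes of 7 that were higher and 1 that was lower, beside 11.1% and 13.3% of all tested genes. The aldo/keto reductase genes 1378769 (27921, 24441 and 25440 against 7744, 8417 and 8329) and 1432753 (13897, 13616 and 11567 against 3391, 3980 and 4397) were higher by 1.69 ± 0.23 and 1.75 ± 0.20. In both genes xylan-galactomannan gave the highest mean of the 6 carbon sources, and for 1378769 all 5 differences were called, whereas for 1432753 the difference from wheat straw was 0.76 ± 0.19 and was not. Another gene of this group (1447101) was lower (-1.94 ± 0.26). The gene annotated as aldose reductase (1436138) had a change of -0.94 ± 0.23 (adjusted p = 0.00327), inside the fold limit, which became a call with replicates 1 and 2 alone (-1.07) and without aspen replicate 1 (-1.03) or 3 (-1.02). The gene annotated as sorbitol dehydrogenase (1387014) had 8884, 8926 and 9250 against 2903, 4952 and 6295, a change of 0.96 ± 0.29 that was called only without aspen replicate 3 (1.22), among the alternatives run.

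In the smaller lists, the glucoamylase-family gene GH15 (1507511), for starch and maltodextrins, was higher on xylan-galactomannan (13356, 17347 and 11329 against 2270, 3623 and 6359, 1.79 ± 0.34), while the GH31 and GH32 genes were not called. Of 4 genes of the sugar transporter superfamily 1 was lower (1428914, 191, 185 and 362 against 2038, 1943 and 1761, -2.92 ± 0.36) and 3 were not called. Beside this and the following lists, 13.3% of all tested genes were lower and 11.1% higher. Of 11 genes for the fungal cell wall and glycoproteins 10 were not called and the GH16 gene 1445175 was lower (-1.64 ± 0.36), with a list median of -0.11. The study had selected 1445175 on aspen alone, so its high aspen level was part of that selection. With replicates 1 and 2 alone the GH76 gene 320973 was also called higher (1.19) and the GT69 gene 1435520 lower (-1.02). Among 8 peptidases, the tripeptidyl peptidase genes 1471389 (-3.29 ± 0.47) and 1438837 (-1.75 ± 0.58) were lower, while the other tripeptidyl peptidase genes 672392 (0.01 ± 0.25) and 1444114 (-0.90 ± 0.44) were among the 5 peptidases not called. The call of 1438837 was lost without xylan-galactomannan replicate 1 (-1.63) or 2 (-1.52) and without aspen replicate 2 (-1.55). The study's text counts 1438837 among predicted secreted proteins of unknown function, and the name used here rests on its enzyme number alone. The calpain-type peptidase 1448471, a calcium-dependent protease by its family, was higher, with 16546, 14225 and 16116 against 1201, 846 and 779 (4.07 ± 0.37). On wheat straw its mean was 17991, and the difference of xylan-galactomannan from wheat straw (-0.22 ± 0.33) was not called. The study had selected this gene on wheat straw, so its level there was part of that selection.

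The 121 genes that the study selected on aspen had a median change of -1.0. Of these, 59 were lower on xylan-galactomannan, 56 were not called and 6 were higher. Among all tested genes 13.3% were lower and 11.1% higher. All 121 were called above maltose on aspen, which their selection asked for, and 93 were above maltose on xylan-galactomannan, as were 19.4% of all tested genes. The maltose libraries were part of the selection, so the second count is a description only.

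In the other direction, the 4 genes with the greatest rise on xylan-galactomannan were also among those that the study selected for high transcription on pine and wheat straw, so their levels on those 2 substrates were part of that selection. The gene 1371554, annotated in the isocitrate lyase and phosphoenolpyruvate mutase superfamily, had 230851, 289167 and 200453 normalized counts on xylan-galactomannan and 2203, 1274 and 894 on aspen. Every library of the first medium lay far above every one of the second, and the log2 fold change was 7.38 ± 0.63 (adjusted p = 4.53e-07). Per length it ranked behind 1455990 and 739269 among the higher genes, with means of 7301 and 36.8 RPKM.

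Close to it lies 1511705, annotated as a flavin-dependent dehydrogenase of the glycolate oxidase and cytochrome-type lactate dehydrogenase family. It had 123710, 127412 and 109716 normalized counts against 831, 1031 and 623 (7.20 ± 0.64). Between the 2 genes the Pycco1 annotation places 1 small gene, 710961, which was chosen after its values were seen. It lies 202 bases from 1511705 and 875 bases from 1371554 and was also higher (2.71 ± 0.62) but at no more than 21 normalized counts in a library. The gene 679895, without an annotation here, rose most of all (64949, 109953 and 57730 against 621, 418 and 299, 7.46 ± 0.60), and the protein kinase gene 1461571 had 10703, 18776 and 13919 against 211, 246 and 167 (6.14 ± 0.58).

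All 4 genes were called lower on aspen than on pine and wheat straw, and differed in how xylan-galactomannan stood to pine. For 1371554 the means were 2502 on maltose, 1020 on Avicel, 116727 on pine and 158480 on wheat straw, so that aspen stood with maltose and Avicel and not with the other plant materials. On aspen, 1371554 was lower than on pine (log2 fold change -6.31 ± 0.61) and than on wheat straw (-6.80 ± 0.62), while its difference from maltose was -0.77 ± 0.48 (adjusted p = 0.195). The gene 679895 differed in part, being called above Avicel on aspen (adjusted p = 0.0152). On xylan-galactomannan the differences of 1371554, 679895, 1511705 and 1461571 from wheat straw were 0.58 ± 0.48, 0.97 ± 0.45, 0.52 ± 0.49 and -1.12 ± 0.46, and none was called. Against pine, 679895 (1.77 ± 0.46, adjusted p = 0.00343) and 1511705 (1.89 ± 0.50, adjusted p = 0.00398) were called higher on xylan-galactomannan, while 1371554 (1.06 ± 0.49) and 1461571 (1.05 ± 0.46) were not. With replicates 1 and 2 alone the rises over aspen were 7.47 for 1371554, 7.24 for 1511705, 7.61 for 679895 and 6.14 for 1461571, so that they did not rest on replicate 3.

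Other strong rises had other profiles. The gene 1437094 was high on xylan-galactomannan (7803, 13558 and 7287) and not on aspen (247, 188 and 197), a change of 5.52 ± 0.33, and it was called higher there than on each of the other 4 carbon sources too, by 5.33 to 6.49 log2. In the same way 1475335 (720, 477 and 506 against 30, 11 and 22, 4.77 ± 0.55) exceeded all 5 other media, by 3.88 log2 or more. In both genes replicate 3 (7287 and 506) lay with replicates 1 and 2 and far above the wheat straw means (160 and 29). The gene 1430513 (15092, 18890 and 19689 against 371, 359 and 293, 5.74 ± 0.50) was as high on wheat straw, with a mean of 19117. The study had selected this gene too on pine and wheat straw, so its level there was part of that selection. The gene 1435712 rose by 5.85 ± 0.75 from 1, 6 and 7 normalized counts.

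The rule also named 3 rises that were smaller or less even. The gene 1466450 had 1405, 447 and 211 against 35, 64 and 31 (3.97 ± 1.06, adjusted p = 0.00591). Its highest level was on maltose, with a mean of 154969, and the 3 xylan-galactomannan libraries differed from each other more than in the other 11 genes with the largest rise. The genes 1359464 (3.77 ± 0.36) and 170502 (3.74 ± 0.38) had their highest means on xylan-galactomannan, with means of 4543 and 9101 on maltose. For 1359464 the difference from maltose was 0.78 ± 0.32 and was not called. For 170502 wheat straw came next, with a mean of 11484, and the difference of 0.80 ± 0.34 was not called.

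**Figure D5:**
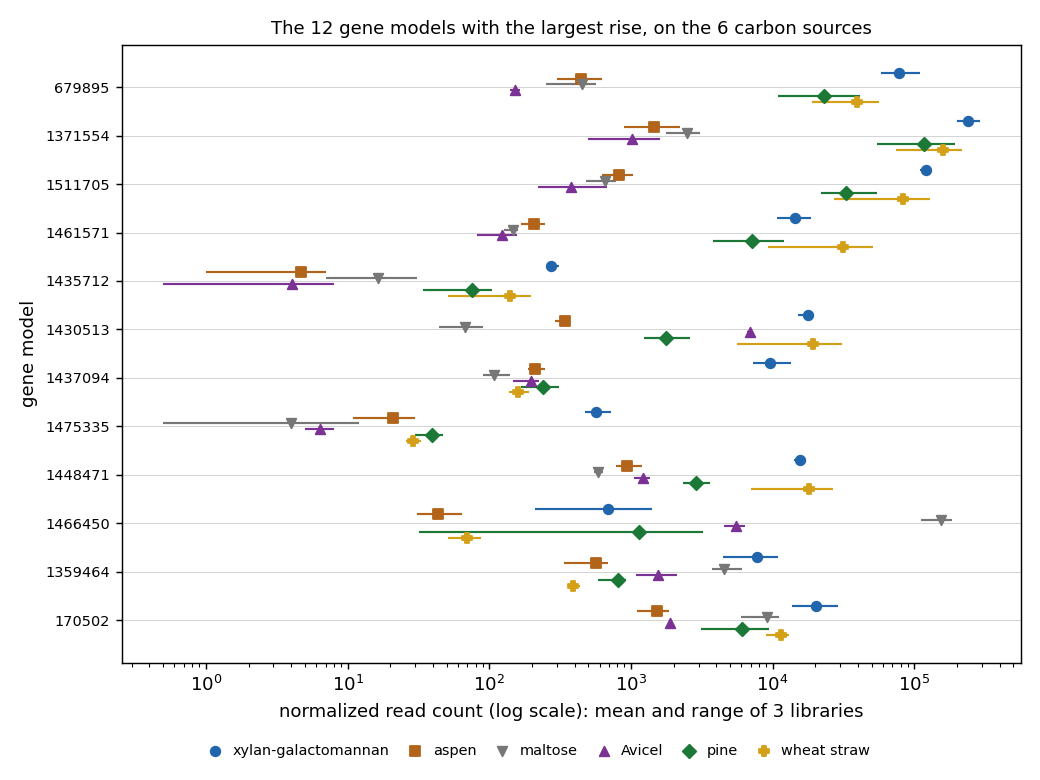
Mean normalized read count (log scale; line, lowest to highest of 3 libraries; values under 0.5 drawn at 0.5) on 6 carbon sources for the 12 gene models with the largest rise on xylan-galactomannan over aspen. In the first 4 rows xylan-galactomannan, pine and wheat straw lie far to the right of aspen, maltose and Avicel, with pine called below xylan-galactomannan in 679895 and 1511705, and 1437094 and 1475335 are high on xylan-galactomannan alone.

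Among the 12 largest falls, 8 were list genes described above and 4 had no annotation here. The gene 1424818 had 975, 895 and 1596 normalized counts on xylan-galactomannan and 102365, 64293 and 99682 on aspen (-6.23 ± 0.90), and 1374028 had 179, 223 and 340 against 30793, 23078 and 29102 (-6.77 ± 1.00). Both were highest on Avicel, with means of 317542 and 281772, as the cellulose genes 1428145 and 1389216 were. The other pair adjoined LPMO genes in the annotation. The gene 1430659 lies 246 bases from the AA9-CBM1 gene 1382161 and had 42, 55 and 23 against 3782, 1503 and 3172 (-6.15 ± 0.78). The gene 1048895 (-7.03 ± 0.68) overlaps the AA9-CBM1 gene 1428145 by 204 bases, and the sources used here do not say whether counting used the strand, so its reads may belong to either gene.

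The rule also named the 5 most abundant genes of each direction, of which 1371554 and 679895, ranked behind the first 2 of the higher genes, were described above. Of the higher genes, 1455990 had the highest level per length (12793 against 2767 RPKM, 1.96 ± 0.40). The next, 739269 (7841 against 3248 RPKM, 1.03 ± 0.33), lost its call without xylan-galactomannan replicate 2 (0.74) or aspen replicate 3 (0.92). The fifth, 1470270 (3955 against 1609 RPKM, 1.05 ± 0.22), lost it without xylan-galactomannan replicate 2 (0.93), aspen replicate 2 (1.00) or aspen replicate 3 (1.00). Of the lower genes, 1429324 had 2781 against 9786 RPKM (-2.06 ± 0.37), 1477226 had 4449 against 9479 RPKM (-1.34 ± 0.35) and 270010 had 1802 against 9478 RPKM (-2.66 ± 0.75). The gene 448186, one of the study's aspen genes, fell from 7268 to 886 RPKM (-3.29 ± 0.51), but its level per length rests on a mappable length of only 25 bases. It overlaps its neighbour 1468135 by 69 bases, and its reads may belong to that gene, which was also lower (-3.46 ± 0.51). The fifth of the lower genes, 1480490, had 3588 against 6772 RPKM (-1.17 ± 0.31).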

How the data were processed

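Raw counts per gene model were deposited for 18 libraries. The authors had quality-filtered paired-end reads at the JGI, mapped them with TopHat 2 and obtained gene counts with HTSeq. The handling of reads that match several gene copies is not given in the sources used here, so near-identical paralogs could share reads. The authors also deposited RPKM, raw counts per mappable length and library total, used here for levels between genes. All 36 value columns matched a sample.

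One model was fitted to the 18 libraries with edgeR 4.0.16 in R 4.3.3 (TMM factors, filterByExpr, glmQLFit and glmQLFTest), with xylan-galactomannan minus aspen as the contrast. Standard errors are the absolute log2 fold change divided by the square root of F. Values per library are counts divided by DESeq2 1.42.0 size factors. The fit was tested on simulated data. Replicates differed by more than sampling noise, with chi-square per degree of freedom of 49.4 to 280. p-values rest on the spread between 3 cultures per medium, pooled over all 18 libraries and so also over the media not compared here.

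Genes named are the 12 with the largest change each way (called, libraries not overlapping, mean normalized count of at least 100), the 5 most abundant called each way, and list members. The libraries, lists and rules were chosen with earlier results of these data known. KOG and enzyme annotations and CAZy families are those of the study's supplementary lists. Neighbours come from the public Pycco1 annotation, which matched 12680 gene models by locus tag. Alternatives were RLE factors, DESeq2, no filter, the 6 libraries alone, a block for the replicate number, Bonferroni adjustment and fits without 1 of the libraries. The comparison of replicate 3 with wheat straw was added after seeing the data. Depths were 26370228 counts or more, and their number limits the precision of genes with few counts only.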

Additional observations from a re-analysis of the deposited data

How the results depend on the processing

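Of 117 single genes followed, 82 kept their call under all 12 alternatives, and 0 values changed sign. Against 1245 genes higher and 1484 lower, Bonferroni adjustment left 209 and 307. Under it the genes higher were 0 in the cellulose, pectin and storage lists and 2 in the study's aspen list. The genes lower were 0 in the mannan, pectin and fungal wall lists, 1 in the cytochrome P450 and peptidase lists, 2 in the xylan list, 3 in the lignin and aromatic ring lists and 21 in the aspen list. Leaving out 1 library gave 979 to 1486 genes higher and 1241 to 1861 lower, with the lowest counts without xylan-galactomannan replicates 2 and 1 and the highest without replicate 3. In the same fits the count higher ran from 0 to 1 in the cellulose, esterase and fungal wall lists, and the count lower ran from 1 to 2 in the fungal wall, aldose and peptidase lists. Counts under RLE factors, DESeq2, no filter on low counts and the 6 libraries alone were within 1.5 times of those reported.

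The main fit did not pair libraries by replicate number. Deviations of same-numbered libraries correlated with r of 0.1458, -0.0626 and 0.2359, and those of differently numbered libraries with r from -0.2885 to 0.2124. With 3 libraries per medium, whose deviations from their mean are tied to each other, these values cannot exclude a pairing. With the replicate number as a block, 1238 genes were higher and 1538 lower. Of the genes followed, the block ended 1 call, that of 739269 (1.00).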
